A study of Mus musculus with 8 samples.

Results

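The genes described here are 10 kinases and sensors of the DNA damage checkpoint: Atm, Atr, Chek1, Chek2, Wee1, Topbp1, Claspn, Mdc1, Nbn and Rad50. They were followed in mouse cells, labelled as BCR-ABL1 cells or as splenic B cells, that carry a green fluorescent protein (GFP) reporter for AID. This is the deaminase that B cells use to diversify their antibody genes. The checkpoint genes are 10 of the 18193 genes with a probe set of their own in the platform annotation. Every probe set whose gene symbol there is one of the 10 was taken, which gave 21 of the 45037 probe sets that were not controls. The annotation lists claspin as Clspn, the spelling used below, and this match rests on general knowledge of the name, since no table used here links the spellings. Of the 21 probe sets, 18 passed a filter on low signal and were tested among 27022 in all. The untested probe sets were Atr 1438921_at, Chek1 1420031_at and Rad50 1425939_at, and each gene kept at least 1 tested probe set.

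RNA of 8 samples was hybridised to Affymetrix mouse expression arrays, with 2 arrays in each of 4 groups. The BCR-ABL1 GFP-positive and BCR-ABL1 GFP-negative arrays came from bone marrow cells labelled with BCR-ABL1, the fusion kinase of Philadelphia chromosome-positive leukaemia. The spleen GFP-positive and spleen GFP-negative arrays came from cells labelled as splenic B cells stimulated with LPS and IL4. LPS is a bacterial stimulus and IL4 a cytokine, and the combination is used to start class switching in culture. All 4 groups carried the Aid-GFP reporter. The sources used here do not give mouse strain and age, the way BCR-ABL1 was introduced, the gates of the GFP sort or the mice and cultures behind each replicate, so a p-value measures only the spread between these arrays, which may be technical. The number of arrays limits the precision, and the smallest two-sided p that an exact permutation of 2 arrays against 2 can give is 0.333, so every call below rests on the limma model.

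AID makes lesions in DNA, and double-strand breaks in the switch regions are normal intermediates of class switching. Rad50 and Nbn belong to the MRN complex, which finds broken ends and brings in the kinase ATM; ATM activates CHK2 (Chek2) and marks chromatin for the adaptor MDC1. Stretches of single-stranded DNA at stalled replication forks instead activate the kinase ATR through TOPBP1, and claspin carries the signal to CHK1 (Chek1). WEE1 adds the inhibitory phosphate to cyclin-dependent kinases that holds a cell before mitosis, and WEE1, CHK1 and claspin are also needed in undisturbed S and G2 phases.

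Promoter windows of 300 bases, 250 before and 50 after the annotated start, were in the RefSeq table (build GRCm38.p6) for 7 of the 10 genes and not for Nbn, Rad50 and Wee1. Those of Chek1 and Clspn (highest spleen differences below), Chek2 (the other effector kinase) and Mdc1 (the leading probe set that was lower) are shown 5′ to 3′ on the strand of the gene. Capitals mark the motifs searched, on either strand: the E2F-like sites TTTCCCGC, TTTGGCGC, TTTCGCGC and TTTGCCGC, bound by cell cycle transcription factors of the E2F family, the CCAAT box (CCAAT) and the cell cycle homology element (TTTGAA). A match on the opposite strand appears as its reverse complement, and no overlapping matches of different motifs occurred in these windows.
Chek1, chr9:36726609-36726908, minus strand: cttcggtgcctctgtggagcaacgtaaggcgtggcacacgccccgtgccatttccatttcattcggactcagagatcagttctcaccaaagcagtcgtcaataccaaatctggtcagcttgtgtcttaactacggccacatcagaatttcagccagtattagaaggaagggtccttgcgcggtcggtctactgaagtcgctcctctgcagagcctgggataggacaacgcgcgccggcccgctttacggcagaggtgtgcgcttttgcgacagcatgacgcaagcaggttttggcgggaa
Clspn, chr4:126556730-126557029, plus strand: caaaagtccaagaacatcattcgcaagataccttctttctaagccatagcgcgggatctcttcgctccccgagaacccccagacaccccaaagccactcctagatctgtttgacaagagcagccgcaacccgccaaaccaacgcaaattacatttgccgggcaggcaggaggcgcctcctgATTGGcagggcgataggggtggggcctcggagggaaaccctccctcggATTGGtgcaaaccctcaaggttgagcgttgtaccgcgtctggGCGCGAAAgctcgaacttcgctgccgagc
Chek2, chr5:110839733-110840032, plus strand: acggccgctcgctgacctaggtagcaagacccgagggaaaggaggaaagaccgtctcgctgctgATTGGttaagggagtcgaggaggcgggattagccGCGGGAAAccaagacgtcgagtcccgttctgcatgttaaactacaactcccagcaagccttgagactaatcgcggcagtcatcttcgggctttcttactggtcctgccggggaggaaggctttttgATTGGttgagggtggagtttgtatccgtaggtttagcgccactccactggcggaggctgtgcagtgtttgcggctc
Mdc1, chr17:35841248-35841547, plus strand: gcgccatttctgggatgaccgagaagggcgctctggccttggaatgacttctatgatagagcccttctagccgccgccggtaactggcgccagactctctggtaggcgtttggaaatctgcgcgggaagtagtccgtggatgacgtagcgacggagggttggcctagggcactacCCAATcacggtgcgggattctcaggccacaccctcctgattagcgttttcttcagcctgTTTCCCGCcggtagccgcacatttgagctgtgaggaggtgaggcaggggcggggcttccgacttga

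An E2F-like site was present in 4 of the 7 windows, those of Chek2, Clspn, Mdc1 and Topbp1, beside 2.26% of 32851 promoter windows of the table. A CCAAT box was present in 4 of 7, those of Atm, Chek2, Clspn and Mdc1, beside 37.4% of all windows. The element TTTGAA was in 0 of 7 windows, beside 17.9% of all windows. Clspn held 2 CCAAT boxes and Chek2 also 2, and the windows of Chek1 and Atr held none of the searched letters. Only exact matches inside a window were counted, so near matches and matches cut by its edge were missed. The Chek1 window ends in gcgggaa, the reverse complement of TTTCCCGC without its last base, which would fall outside the window. It also holds tttggcgg, which differs from TTTGGCGC in the last base only. E2F-like matches thus lay both in genes that were higher and in a gene that was lower in spleen GFP-positive arrays, and a match is a description of letters, not a binding site.

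The arrays were compared on quantile-normalized signal, with values under 32 set to 32 (the floor), and a difference is a log2 difference of group means. The spleen GFP-negative arrays stood apart: their rank correlation with the other 6 arrays was 0.822 to 0.850, against 0.984 to 0.996 between replicates of a group and 0.952 to 0.955 between spleen GFP-positive and BCR-ABL1 arrays. Cd79a, a part of the B cell receptor, was bright in all 4 groups. It had 10188 and 10521 in BCR-ABL1 GFP-positive and 10781 and 10997 in BCR-ABL1 GFP-negative arrays. In spleen GFP-positive arrays it had 7988 and 7960.4, and in spleen GFP-negative arrays 10698 and 10896. Other B cell genes did not all follow it. Of 9, 3 were lower and none higher in BCR-ABL1 GFP-positive than GFP-negative arrays (limma adjusted p under 0.05), down to -3.73. Over all probe sets tested, 1.23% were lower there. Between the GFP-positive fractions, 5 were higher and 4 lower in BCR-ABL1 cells, from -7.60 to 1.10, beside 22.4% and 21.6% of all. Summed signal of 10 pre-B genes was 51375 or more in each BCR-ABL1 array. It was 3189.5 to 3701 in spleen GFP-positive and 13356 to 14200 in spleen GFP-negative arrays. Summed signal of 6 mature B genes was 3211.6 to 3247.5 in BCR-ABL1 GFP-positive and 5226.6 to 5468.7 in BCR-ABL1 GFP-negative arrays. In each spleen array it was 31914 or more. Genes of other cell types were also present in the spleen GFP-negative arrays. Summed signal of 16 myeloid marker genes was 1171 to 1218 in spleen GFP-positive arrays, against 88436 to 90392 in spleen GFP-negative arrays, and 1412 to 1466 in BCR-ABL1 GFP-positive, against 1334 to 1355 in BCR-ABL1 GFP-negative arrays. The myeloid gene Csf1r was at the floor in all arrays but those of the spleen GFP-negative group, where it had signals of 4819 and 4576. The same held for the T cell gene Cd3g, at 2698 and 2327 in the spleen GFP-negative arrays. Of the myeloid genes, 6 were at the floor in both spleen GFP-positive arrays and none in the spleen GFP-negative arrays; of 14 T and NK genes these counts were 2 and 0. Summed T and NK signal was 3412 to 3616 in spleen GFP-positive, against 23497 to 24605 in spleen GFP-negative arrays. Summed signal of 20 proliferation genes was 91390 to 91568 in spleen GFP-positive and 25889 to 27031 in spleen GFP-negative arrays. For the BCR-ABL1 arrays it was 95578 to 95652 in GFP-positive and 96849 to 97966 in GFP-negative cells. The ratio of 3′ to 5′ signal of the Gapdh control, a sign of RNA quality, was 1.88 to 1.93 in spleen GFP-negative arrays and 1.40 to 1.48 in the other 6. The part of these differences in the spleen results below was not tested. In bulk samples of this kind, fewer cells of a type and less RNA per cell cannot be told apart.

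**Figure D1:**
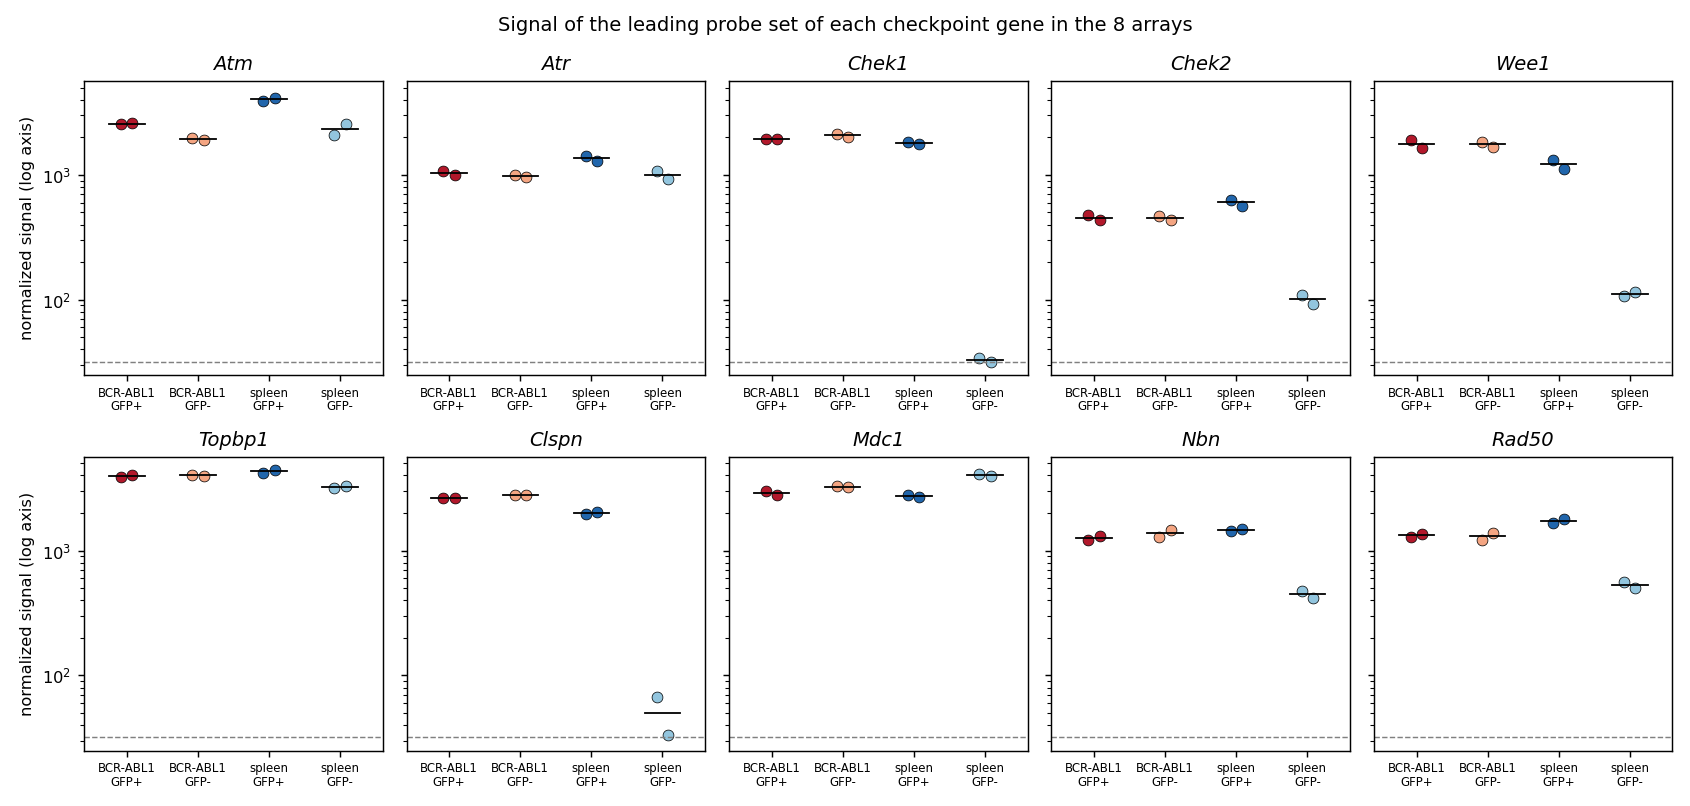
Normalized signal (log axis) of the brightest probe set of each of the 10 genes in the 8 arrays, with GFP-positive left of GFP-negative in each source; points are arrays, bars the mean of 2, and the dashed line the floor of 32. The spleen GFP-negative points lie lowest for Chek1, Chek2, Wee1, Topbp1, Clspn, Nbn and Rad50 and highest for Mdc1; for Atm the spleen GFP-positive points lie highest.

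Within BCR-ABL1 cells, none of the checkpoint genes passed the test between GFP-positive and GFP-negative arrays as processed here. Of the 18 probe sets, 0 were called at a limma adjusted p under 0.05. Of all probe sets tested, 2.8% were called, 1.57% higher and 1.23% lower. At this share, a list of this size need not hold any call. An unadjusted p under 0.05 was found for 3 of the 18, one each of Atm, Clspn and Mdc1, beside 3117 of all 27022. The 18 differences ran from -0.33 to 0.42 with a median of -0.061, against a median of -0.0023 over all probe sets tested. Errors and intervals given for them come from the fit of all arrays, so the spread of the spleen arrays enters them. The count of 0 depends on this fit. With only the 4 BCR-ABL1 arrays, 2 of the 18 were called, of Atm and Clspn, among 2159 of all probe sets. Without both spleen GFP-negative arrays the same 2 were called among 1674, against 756 as processed here.

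Among the apical kinases, Atm 1428830_at came closest to the threshold. Its signal was 2545 and 2603 in the BCR-ABL1 GFP-positive arrays, against 1972 and 1888 in the BCR-ABL1 GFP-negative arrays. Both GFP-positive arrays lay above both GFP-negative arrays, a difference of 0.42 ± 0.094 (SE), or 1.33-fold, with a 95% interval of 0.20 to 0.63 and an adjusted p of 0.0715. This value passed the threshold under 9 of 23 alternatives, with adjusted p-values from 0.000747 to 0.429, and fitted without both spleen GFP-negative arrays it was 0.40 with an adjusted p of 0.00249. The other Atm probe set, 1421205_at, had 429 and 434 in GFP-positive and 412 and 457 in GFP-negative arrays, which overlapped, and a difference of -0.0078 ± 0.13 with an interval of -0.30 to 0.28. Thus the higher Atm signal was measured by one of its probe sets and not by the other. Atr 1427197_at had 1064 and 988 in GFP-positive and 998 and 957 in GFP-negative arrays, which overlapped, a difference of 0.070 ± 0.10 with an interval of -0.16 to 0.30. Its other tested set, 1445091_at, had a difference of -0.13 ± 0.12 with an interval of -0.41 to 0.14.

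The effector kinases gave small differences. Chek1 1449708_s_at, its brightest probe set, had 1933 and 1934 in BCR-ABL1 GFP-positive arrays, against 2128 and 2006 in GFP-negative arrays, a difference of -0.096 ± 0.088 (adjusted p = 0.874). All 4 tested Chek1 probe sets were below 0 as processed here, from -0.22 to -0.034. The value of 1439208_at was above 0 with equal array medians (0.0039) and without BCR-ABL1 GFP-positive replicate 2 (0.089). For 1449708_s_at, 1420032_at and 1450677_at the arrays of the fractions did not overlap, and 1449708_s_at and 1420032_at are annotated to the same sequence record. With 2 arrays against 2, a lack of overlap, here as elsewhere, reaches no exact permutation p under 0.333. Its share over all probe sets was not counted. Chek2 had 475 and 435 in GFP-positive and 465 and 434 in GFP-negative arrays, with a difference of 0.017 ± 0.13 and an interval of -0.29 to 0.32. Wee1 1416773_at had 1888 and 1636 in GFP-positive and 1835 and 1667 in GFP-negative arrays, a difference of 0.0069 ± 0.12 with an interval of -0.27 to 0.29. For Chek2 and this Wee1 set the arrays of the groups overlapped, and Wee1 1416774_at had a difference of -0.17 ± 0.18 with an interval of -0.59 to 0.26.

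Of the adaptors, claspin and MDC1 were below 0 in GFP-positive cells without passing the test. Clspn 1441984_at had 568 and 587 in BCR-ABL1 GFP-positive arrays, against 731 and 724 in GFP-negative arrays. The arrays did not overlap, and the difference was -0.33 ± 0.12 (adjusted p = 0.294). Without both spleen GFP-negative arrays it was -0.33 with an adjusted p of 0.0399. Clspn 1456280_at had 2652 and 2612 in GFP-positive and 2804 and 2787 in GFP-negative arrays, a difference of -0.087 ± 0.27. The spleen GFP-negative arrays had 67.5 and 33.5 for this set, and their spread enters this error. Mdc1 had 2985 and 2775 in GFP-positive arrays, against 3266 and 3225 in GFP-negative arrays, again without overlap, a difference of -0.17 ± 0.055 (adjusted p = 0.210). Topbp1 1452241_at, the activator of ATR, was measured most closely, with a difference of -0.0079 ± 0.048 and an interval of -0.12 to 0.10. The other Topbp1 set, 1458480_at, had 382 and 396 in GFP-positive and 362 and 337 in GFP-negative arrays. Its difference was 0.16 ± 0.26 with an interval of -0.45 to 0.76. The spread of the spleen GFP-negative arrays (46.2 and 87.0) enters this error too. The sensors Nbn and Rad50 had differences of -0.12 ± 0.10 and 0.034 ± 0.096, and their arrays overlapped between GFP fractions.

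**Figure D2:**
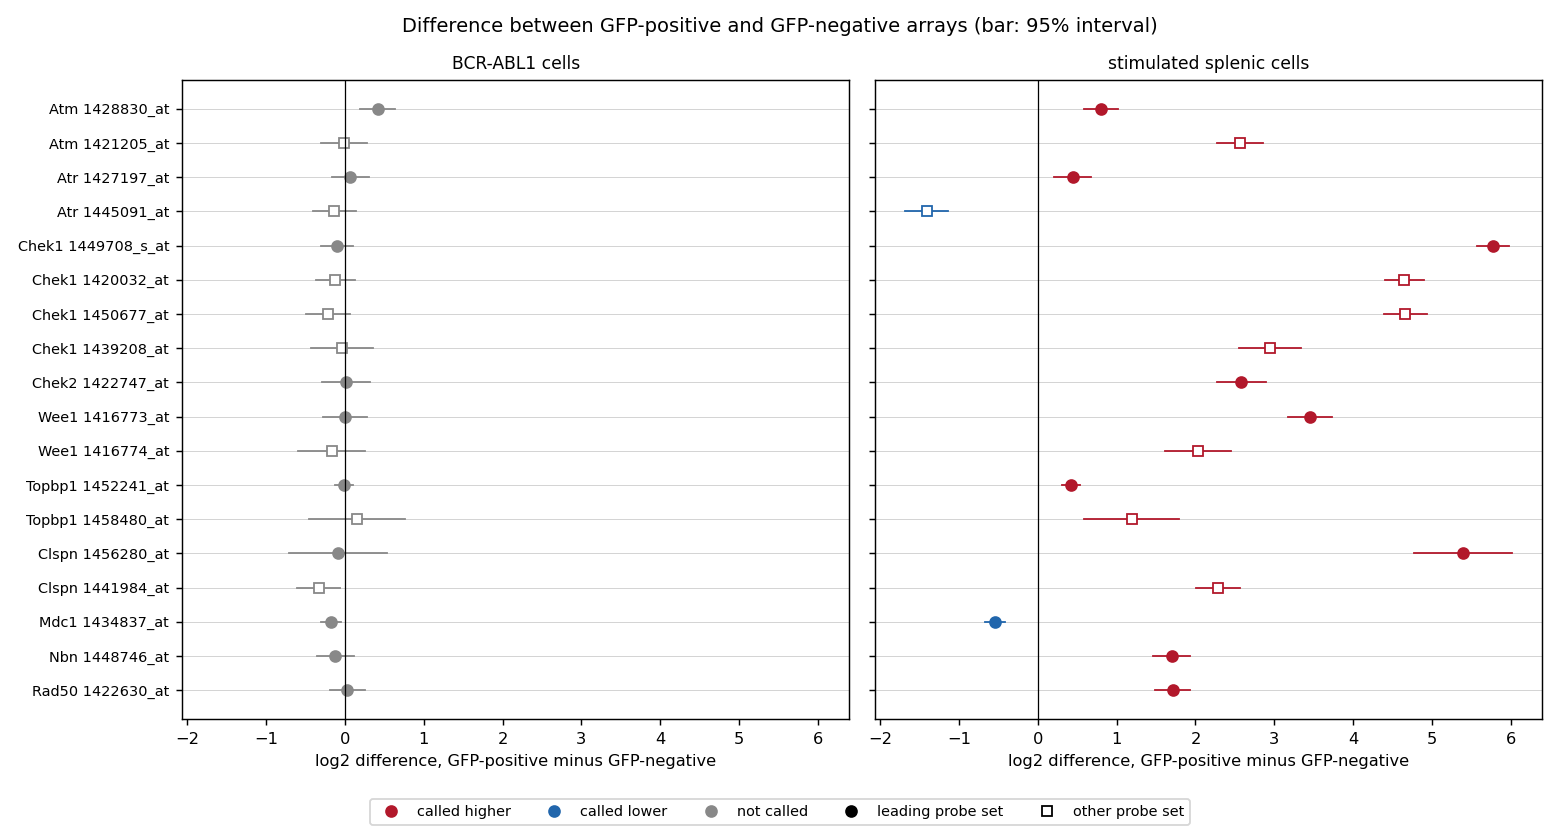
Log2 difference between GFP-positive and GFP-negative arrays for the 18 tested probe sets, in BCR-ABL1 cells (left) and stimulated splenic cells (right), with 95% intervals (2 arrays against 2); filled circles are the brightest probe set of a gene. All BCR-ABL1 differences lie between -0.33 and 0.42 and none was called as processed here. Of the spleen differences, 16 were called higher and 2 lower.

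In the spleen, the GFP-positive fraction held more RNA of most checkpoint genes than the GFP-negative fraction. Of the 18 probe sets, 16 were higher and 2 lower by limma at an adjusted p under 0.05, where 44.9% of all probe sets tested were higher and 33.3% lower. By the brightest probe set of each gene, 9 of 10 genes were higher and Mdc1 was lower. With the mean of the tested probe sets of each gene, 8 of 10 were higher, since Atr was then lower (-0.48). The median difference was 2.16 over the 18 probe sets and 0.17 over all tested. Calls of this kind were so frequent that a call by itself sets no gene apart, and the size of the difference is given for each. This comparison rests wholly on the spleen GFP-negative arrays described above.

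Chek1, the effector kinase of ATR, had the highest difference of the 10 genes. Chek1 1449708_s_at had 1838 and 1759 in spleen GFP-positive arrays, against 33.9 and 32 in spleen GFP-negative arrays. One of the GFP-negative arrays was at the floor and the other just above it, so the difference of 5.77 ± 0.088 (54.6-fold, adjusted p = 9.80e-09) rests in part on the floor. Chek1 1450677_at had 878 and 748 in GFP-positive arrays and was at the floor in both GFP-negative arrays, at least 25.3-fold higher. Chek1 1439208_at was likewise at least 7.70-fold higher. Chek1 1420032_at had 778 and 851 in GFP-positive arrays, against 32.9 and 32 in GFP-negative arrays, again at or just above the floor. The size of these differences follows the floor and the scale, and over the alternatives it ran from 4.51 to 6.27 for 1449708_s_at and from 3.67 to 4.81 for 1420032_at. The sets 1449708_s_at, 1420032_at and 1420031_at are annotated to the same sequence record, so they are not independent readings of the gene. The untested 1420031_at had 53.2 and 48.9 in GFP-positive arrays and was at the floor in both GFP-negative arrays. All 4 tested Chek1 probe sets and Clspn 1456280_at were above the filter in the other 3 groups and not in the spleen GFP-negative group, so they passed through the groups where they are high and had to differ from it. The remaining 13 tested probe sets were above the filter level in all 4 groups.

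Claspin, the adaptor between ATR and CHK1, came next. Clspn 1456280_at had 1972 and 2024 in spleen GFP-positive arrays, against 67.5 and 33.5 in GFP-negative arrays. The GFP-negative arrays lay far below and also far from each other, and the difference was 5.39 ± 0.27 (42.0-fold, adjusted p = 6.47e-07). One of them was just above the floor, so the size of this difference follows the floor and the scale. It ran from 3.84 to 5.96 over the alternatives. Clspn 1441984_at had 490.5 and 520.2 in GFP-positive and 95.3 and 113 in GFP-negative arrays, a difference of 2.28 ± 0.12. Topbp1, which activates ATR at the fork, rose far less: 1452241_at had 4209 and 4407 in GFP-positive arrays, against 3158 and 3282 in GFP-negative arrays. This was 0.42 ± 0.048, or 1.34-fold (adjusted p = 6.89e-05). Its dimmer probe set 1458480_at had 150.4 and 139 in GFP-positive and 46.2 and 87.0 in GFP-negative arrays, and its difference of 1.19 ± 0.26 was not called once the tested probe sets of all arrays were set to the same median (0.57, adjusted p = 0.0639).

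WEE1 and CHK2, kinases that hold the cell cycle, were also higher. Wee1 1416773_at had 1318 and 1111 in spleen GFP-positive arrays, against 107 and 114 in GFP-negative arrays. The groups were far apart, 3.45 ± 0.12 or 11.0-fold (adjusted p = 1.17e-07), and the other set 1416774_at gave 2.03 ± 0.18. Chek2 had 634 and 568 in GFP-positive arrays, against 109 and 92.3 in GFP-negative arrays, 2.58 ± 0.13 or 5.99-fold (adjusted p = 7.63e-07).

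The probe sets of the apical kinases ATM and ATR disagreed in the size or the direction of the difference. Atm 1428830_at had 3875 and 4159 in spleen GFP-positive arrays, against 2075 and 2548 in GFP-negative arrays, 0.80 ± 0.094 or 1.75-fold (adjusted p = 8.31e-05). Atm 1421205_at had 1675 and 1852 in GFP-positive and 329 and 269.6 in GFP-negative arrays, 2.56 ± 0.13 or 5.91-fold. Both sets were higher without overlap, by unequal amounts. Atr 1427197_at had 1419.7 and 1298 in GFP-positive arrays, against 1081 and 925 in GFP-negative arrays, 0.44 ± 0.10 or 1.36-fold (adjusted p = 0.00382). Atr 1445091_at ran the other way, with 282 and 283 in GFP-positive and 723 and 778 in GFP-negative arrays, and fell by 1.41 on the log2 scale (adjusted p = 1.07e-05). The sources used here do not give which transcripts each Atr set detects, so no single direction is given for Atr; with the mean of its probe sets the difference was -0.48. The third set, 1438921_at, was at the floor in 7 of 8 arrays.

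Of the break sensors, Nbn and Rad50 of the MRN complex were higher and the chromatin adaptor MDC1 was lower. Nbn had 1427 and 1479 in spleen GFP-positive arrays, against 477 and 420.3 in GFP-negative arrays, 1.70 ± 0.10 or 3.24-fold (adjusted p = 1.66e-06). Rad50 1422630_at had 1676 and 1793 in GFP-positive arrays, against 561 and 502 in GFP-negative arrays, 1.71 ± 0.096 or 3.27-fold (adjusted p = 1.20e-06). Both genes were higher without overlap, and Rad50 1425939_at was at the floor in all 8 arrays. Mdc1 had 2794 and 2689 in GFP-positive arrays, against 4082 and 3929 in GFP-negative arrays. It fell by 0.55 on the log2 scale, 1.46-fold lower (adjusted p = 3.18e-05), and stayed lower, at -0.84 to -0.19, under all 22 alternatives that gave it a value.

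Each of the 18 probe sets differed between the sources in its GFP difference (BCR-ABL1 minus spleen), with 2 higher and 16 lower, beside 29.5% and 40.3% of all probe sets tested. This comparison shares all its arrays with those above. The values ran from -5.87 for Chek1 1449708_s_at to 1.28 for Atr 1445091_at, with a median of -2.38. They were closest to the threshold for Atm 1428830_at (-0.39 ± 0.13, adjusted p = 0.0305), Atr 1427197_at (-0.37 ± 0.14, adjusted p = 0.0452) and Topbp1 1458480_at (-1.04 ± 0.37, adjusted p = 0.0355). The Atm call was lost without any 1 of the BCR-ABL1 arrays or spleen GFP-positive replicate 2, the Topbp1 call without any 1 of the BCR-ABL1 or spleen GFP-positive arrays, and the Atr call without any 1 array other than spleen GFP-negative replicate 1. Without 1 array, 15 to 18 probe sets were called. With the tested probe sets of all arrays set to the same median, the Atm and Topbp1 values were -0.21 (adjusted p = 0.245) and -0.41 (adjusted p = 0.319). With no filter on low signal, the adjusted p was 0.102 for Atm, 0.128 for Topbp1 and 0.0856 for Atr.

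Between the GFP-positive fractions, the checkpoint genes lay closer together, and so did the probe sets as a whole. Of all probe sets tested, 3762 were called with at least a 2-fold difference. In the spleen 11646 were, and between the GFP-negative fractions 12179. The spleen GFP-negative arrays enter the normalization and the errors of this comparison, but not its group means. Of the 18 probe sets, 8 (44.4%) were called, 2 higher and 6 lower in BCR-ABL1, beside 22.4% higher and 21.6% lower of all tested. The share called was thus near that of all probe sets. Leaving out 1 array gave 4 to 9 calls, with 5 without BCR-ABL1 GFP-positive replicate 1 or 2 and 4 without spleen GFP-positive replicate 2. ATM had the clearest difference: Atm 1428830_at had 2545 and 2603 in BCR-ABL1 GFP-positive arrays, against 3875 and 4159 in spleen GFP-positive arrays. This was -0.64 ± 0.094, 1.56-fold lower in BCR-ABL1 cells (adjusted p = 0.000876). Atm 1421205_at had 429 and 434 in BCR-ABL1 and 1675 and 1852 in spleen GFP-positive arrays, 4.08-fold lower (adjusted p = 6.31e-06). Both probe sets were lower in BCR-ABL1 GFP-positive cells under every alternative that gave them a value, 23 for 1428830_at and 21 for 1421205_at.

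Atr was lower in BCR-ABL1 GFP-positive arrays by both tested sets, -0.40 ± 0.10 for 1427197_at (adjusted p = 0.0122) and -0.46 ± 0.12 for 1445091_at (adjusted p = 0.0135). Rad50 was lower by 0.39 on the log2 scale (adjusted p = 0.0123), with 1295 and 1359 in BCR-ABL1 and 1676 and 1793 in spleen GFP-positive arrays. Chek2 had 475 and 435 in BCR-ABL1 and 634 and 568 in spleen GFP-positive arrays, -0.40 ± 0.13 (adjusted p = 0.0399). Its call was lost without BCR-ABL1 GFP-positive replicate 1 or 2, BCR-ABL1 GFP-negative replicate 1 or 2, or spleen GFP-positive replicate 1 or 2. The Atr 1427197_at call was lost without BCR-ABL1 GFP-positive replicate 2 or spleen GFP-positive replicate 1 (adjusted p = 0.0925 and 0.0850), and the Rad50 call without BCR-ABL1 GFP-positive replicate 1 or spleen GFP-positive replicate 2 (adjusted p = 0.0879 and 0.0876). Atr 1445091_at was not called without BCR-ABL1 GFP-positive replicate 2 or either spleen GFP-positive array, with adjusted p-values up to 0.118.

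WEE1, in contrast, was higher in BCR-ABL1 GFP-positive cells by one of its probe sets. Wee1 1416773_at had 1888 and 1636 in BCR-ABL1 and 1318 and 1111 in spleen GFP-positive arrays, 0.54 ± 0.12 or 1.45-fold (adjusted p = 0.00769), and was not called without BCR-ABL1 GFP-positive replicate 1 or spleen GFP-positive replicate 2 (adjusted p = 0.0761 and 0.0659). The dimmer Wee1 1416774_at had 410 and 411 in BCR-ABL1 and 339 and 379 in spleen GFP-positive arrays, and its difference of 0.20 ± 0.18 was not called (adjusted p = 0.436). Topbp1 1458480_at had 382 and 396 in BCR-ABL1 and 150.4 and 139 in spleen GFP-positive arrays, 1.42 ± 0.26 (adjusted p = 0.00285), while its bright set 1452241_at gave -0.12 ± 0.048 (adjusted p = 0.0863), so the Topbp1 sets disagreed. The bright set was called lower on the deposited scale (-0.14, adjusted p = 0.0344) and with equal array medians (-0.18, adjusted p = 0.0153). The same held with equal medians over the tested probe sets (-0.22, adjusted p = 0.0105). Clspn 1456280_at had 2652 and 2612 in BCR-ABL1 and 1972 and 2024 in spleen GFP-positive arrays without overlap. Its difference of 0.40 ± 0.27 was not called (adjusted p = 0.275), and was called without both spleen GFP-negative arrays (0.38, adjusted p = 0.000126). The Chek1 sets ran from -0.13 to 0.36, and Mdc1 (0.071 ± 0.055, interval -0.056 to 0.20) and Nbn (-0.21 ± 0.10, interval -0.44 to 0.029) did not pass.

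**Figure D3:**
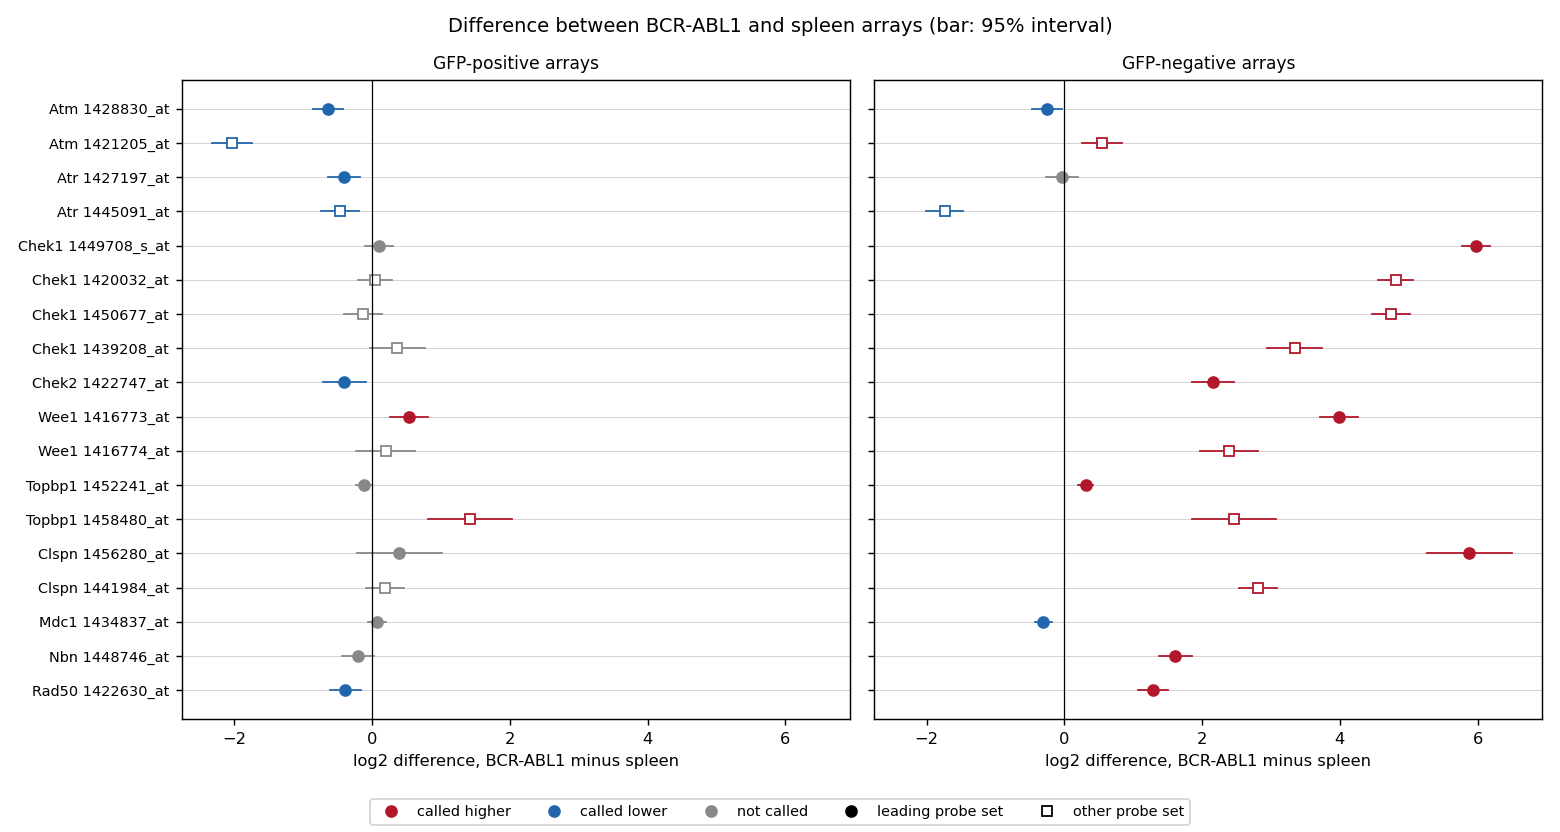
Log2 difference between BCR-ABL1 and spleen arrays for the 18 tested probe sets, in GFP-positive (left) and GFP-negative (right) fractions, with 95% intervals (2 arrays against 2). In the GFP-positive fractions 8 were called and the differences run from -2.03 to 1.42; in the GFP-negative fractions 17 were called, up to 5.97 for Chek1.

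Between the GFP-negative fractions, 17 of the 18 probe sets were called, 14 higher and 3 lower in BCR-ABL1 cells, beside 45.5% higher and 33.4% lower of all probe sets tested. This comparison uses the spleen GFP-negative arrays again, and its values follow from those given above. Chek1 1449708_s_at had 2128 and 2006 in BCR-ABL1 GFP-negative arrays, against 33.9 and 32 in spleen GFP-negative arrays, which lie at or just above the floor. The difference of 5.97 is therefore set in part by the floor, and ran from 4.72 to 6.47 over the alternatives. Wee1 1416773_at was 15.8-fold, Chek2 4.48-fold, Nbn 3.06-fold and Rad50 2.44-fold higher in BCR-ABL1 cells. Mdc1 was lower, -0.30 ± 0.055, a call that was lost on the deposited scale (-0.12, adjusted p = 0.104) and with equal array medians (-0.0064, adjusted p = 0.934). Atr 1445091_at was also lower, -1.74 ± 0.12. For Atm 1428830_at the difference of -0.25 ± 0.094 changed sign on the deposited scale (0.040) and with equal array medians (0.15), and the Atr 1427197_at difference of -0.033 ± 0.10 became 0.47 and 0.58 on those scales. The Atm 1428830_at call was also lost without any 1 array other than spleen GFP-negative replicate 1. The other Atm set, 1421205_at, was called higher in BCR-ABL1 cells, by 0.54 ± 0.13 (limma adjusted p = 0.00428). Its difference ran from 0.40 to 1.15 over the alternatives, so the Atm sets disagreed in direction.

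By mean signal of its brightest probe set, each gene was ordered over the 4 groups as follows, as a description; BCR-ABL1 GFP-negative and spleen GFP-positive arrays were not tested against each other. Spleen GFP-negative arrays were lowest for Chek1, Chek2, Wee1, Topbp1, Clspn, Nbn and Rad50. Above them, Chek1 and Clspn were highest in BCR-ABL1 GFP-negative, then in BCR-ABL1 GFP-positive and then in spleen GFP-positive arrays, and neither of the tested steps among these groups passed as processed here. The Clspn step between the GFP-positive groups passed with a floor of 64 and without both spleen GFP-negative arrays. Nbn and Topbp1 ran the other way, highest in spleen GFP-positive, then in BCR-ABL1 GFP-negative and then in BCR-ABL1 GFP-positive arrays, again with no tested step that passed as processed here. Chek2 and Rad50 were highest in spleen GFP-positive, then in BCR-ABL1 GFP-positive and then in BCR-ABL1 GFP-negative arrays, where the step between the GFP-positive groups passed and that between the BCR-ABL1 groups did not. Wee1 was highest in BCR-ABL1 GFP-positive, then in BCR-ABL1 GFP-negative and then in spleen GFP-positive arrays, and its BCR-ABL1 groups did not differ by a value that passed. Atm and Atr were highest in spleen GFP-positive and then in BCR-ABL1 GFP-positive arrays, and the order of the GFP-negative groups below them changed with the scale. Mdc1 was highest in spleen GFP-negative, followed by the BCR-ABL1 arrays, GFP-negative above GFP-positive, and last the spleen GFP-positive arrays, and among these neighbours no step passed on every scale.

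The partners of these genes were read by the brightest probe set of each gene. In BCR-ABL1 cells, 0 of 11 ATR partners at stalled forks and 0 of 12 break sensing partners were called between GFP fractions, beside 2.8% of all probe sets tested, a share at which lists of this size need not hold any call. Of 13 checkpoint targets and cell cycle engine genes, 2 were higher and none lower. Cdc25a, the phosphatase that CHK1 directs to destruction, had 1564 and 1609.5 in BCR-ABL1 GFP-positive arrays, against 1086 and 1089 in GFP-negative arrays, 0.55 ± 0.080 (adjusted p = 0.0118). Cdkn1a, the p21 inhibitor induced by p53, had 6724 and 7008 in GFP-positive arrays, against 5703 and 5663 in GFP-negative arrays, 0.27 ± 0.052 (adjusted p = 0.0362). For both genes the arrays of the GFP fractions did not overlap, but how often this occurs over all probe sets was not counted. The alternatives were not run for these 2 genes, so how far their calls depend on single arrays is not known. The 20 proliferation genes had 0 calls and a median of -0.0097 in this comparison.

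In the spleen, 9 of 11 ATR partners were higher in GFP-positive arrays and none lower, with a median of 1.16. The fork protection pair Tipin (2.66 ± 0.12) and Timeless (2.00 ± 0.069), the clamp subunit Rad1 (1.73 ± 0.11) and the single-strand binding subunit Rpa3 (1.71 ± 0.12) differed most. Of 12 break sensing partners, 7 were higher and 4 lower, with a median of 0.35, shares that lie near the 44.9% higher and 33.3% lower of all probe sets tested. Mre11a, the nuclease of the MRN complex, had 1860.2 and 2036 in spleen GFP-positive arrays, against 360.4 and 298 in GFP-negative arrays, 2.57 ± 0.11, and so went with its partners Nbn and Rad50. Histone H2ax (2.57 ± 0.12), the adaptor Paxip1 (1.50 ± 0.16) and the cohesin subunit Smc1a (0.81 ± 0.053) were also higher. The 4 that were lower were Trp53bp1 (-0.50 ± 0.12), the ubiquitin ligase Rnf8 (-0.40 ± 0.10), the acetyltransferase Kat5 (-0.51 ± 0.090) and Uimc1 (-0.63 ± 0.077). Of 13 targets and cell cycle engine genes, 12 were higher and none lower, with a median of 2.17, led by Plk1 (4.15 ± 0.25), E2f1 (3.78 ± 0.13), Ccna2 (3.49 ± 0.12) and Cdk1 (3.26 ± 0.089). E2f1 was at the floor in 1 spleen GFP-negative array.

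All 20 proliferation genes were higher in spleen GFP-positive than in spleen GFP-negative arrays, from 0.58 to 6.47 with a median of 2.49, while 14 of 14 tested myeloid and 13 of 13 tested T and NK genes were lower, with medians of -6.42 and -3.34. In the spleen GFP-negative arrays 15 of the 16 myeloid and 14 of the 14 T and NK genes were above the filter level, against 3 to 5 and 5 to 7 in the other groups. Most of these genes were thus tested through the group where they are high and had to differ from it. The checkpoint gene median by brightest probe set was 1.70, between those of the proliferation genes and of all probe sets tested. What share of the checkpoint differences goes with cycling or with other cell types was not tested.

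**Figure D4:**
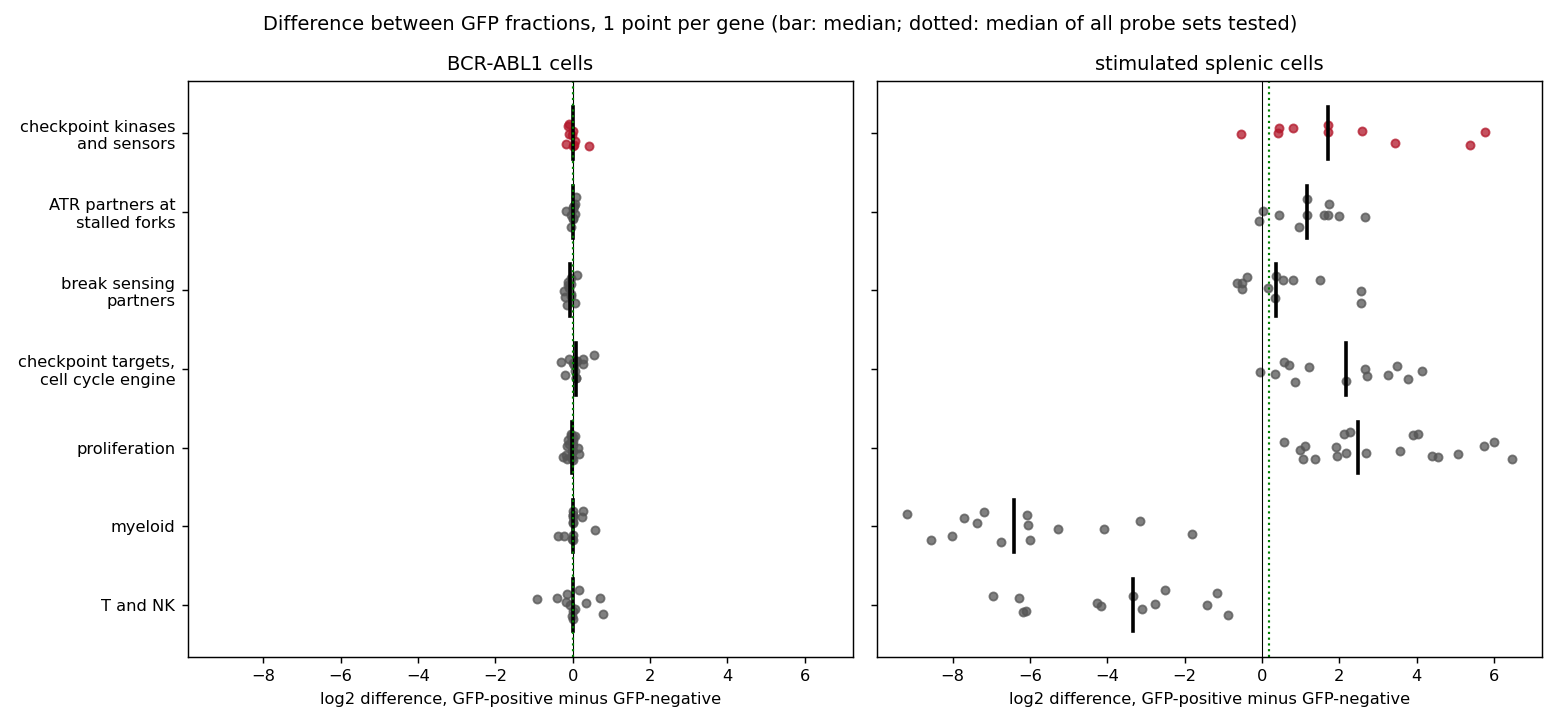
Log2 difference between GFP-positive and GFP-negative arrays by brightest probe set, 1 point per gene, for the checkpoint genes (red), 3 lists of pathway genes and 3 lists of marker genes, in BCR-ABL1 cells (left) and stimulated splenic cells (right); bars are list medians and the dotted line the median of all probe sets tested. In the spleen the medians are 1.70 for the checkpoint genes, 2.49 for proliferation and -6.42 for myeloid genes; in BCR-ABL1 cells every median lies near 0.

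The genes whose centred log2 profile over the 8 arrays lay nearest to each checkpoint gene were sought among 7217 brightest probe sets that span at least 1 log2 unit. These profiles share the arrays and the low spleen GFP-negative group, so the distances are descriptions. Nearest to Chek1 were Cdc6, a replication licensing factor (root mean square difference 0.060 log2 units), Nuf2, a kinetochore protein (0.081), and Fignl1 (0.12). Wee1 was nearest to Tpx2 and Racgap1 (0.12 each), both of the mitotic spindle, and to the replication factor Gins1 (0.12). Clspn was nearest to Chchd6 (0.21), the DNA polymerase subunit Pola1 (0.24) and the cohesin acetyltransferase Esco2 (0.25). For Nbn they were Rnaseh2b (0.051), Elmo2 (0.053) and Phpt1 (0.055), for Rad50 Mrrf (0.055), Nup43 (0.060) and Cep19 (0.064), and for Chek2 Ap1s3 (0.048), Acsl3 (0.070) and Rbmx2 (0.090). Atm was nearest to Plaat3 (0.11), Slc1a4 (0.11) and Snx11 (0.12). Atr, Topbp1 and Mdc1 span 0.62, 0.48 and 0.60 log2 units over the arrays, less than the candidates had to, and no close profile is named for them.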

How the data were processed

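RNA of 8 mouse samples, in 4 groups of 2 taken from the labels, was measured on Affymetrix arrays. The deposited table holds linear signal intensity per probe set; per the submitters' processing notes it came from GCOS 1.3. The sources used here do not give the authors' probe summary and scaling. Gene names came from the platform annotation: of 45037 probe sets left after 64 controls, 34945 had 1 symbol, 932 several and 9160 none.

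Trimmed means (2% trimmed) differed by a ratio of 1.25 between arrays, so the 8 arrays were quantile normalized, intensities under 32 set to 32, and log2 taken. Probe sets with a mean under the 40th percentile (log2 5.67, signal 51.0) were not tested. All arrays were fitted together in limma 3.58.1 (R 4.3.3; lmFit with 1 mean per group, eBayes with trend, 4 residual degrees of freedom), which was tested on simulated data; the recovery of changed probe sets required there was lowered after a first run fell just short of it. Two-sided p-values took the Benjamini-Hochberg adjustment over the 27022 probe sets of a comparison, with calls under 0.05.

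The probe sets of the 10 genes are described, the untested ones by their signal. Of the pathway lists, up to 4 called genes per direction with the greatest difference are named, and the 3 nearest profiles per gene; of the lists of marker genes, counts and a few defining genes. Of the 10 erythroid and megakaryocyte markers, 2 were tested and 1 was higher in spleen GFP-positive arrays. Of 9 tested B cell genes, 2 were higher and 5 lower in spleen GFP-positive arrays. The members and lists were chosen with earlier results of these data known. Alternatives covered the scale, the floor, the filter, the empirical Bayes settings, the summary per gene, the replicate number as a block, leaving out each array and fitting fewer arrays.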

Additional observations from a re-analysis of the deposited data

Results flagged for a closer look

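As processed here, each of the 18 tested probe sets had a GFP difference that differed between BCR-ABL1 cells and the spleen, by the limma test of the difference itself (BCR-ABL1 minus spleen, adjusted p under 0.05). The values were -5.87, -4.77, -4.88 and -2.98 for Chek1 1449708_s_at, 1420032_at, 1450677_at and 1439208_at. Clspn 1456280_at and 1441984_at had -5.48 and -2.62, and Wee1 1416773_at and 1416774_at had -3.45 and -2.20. Chek2 had -2.56, Nbn -1.82 and Rad50 -1.67. Atm 1421205_at and 1428830_at had -2.57 and -0.39. For Topbp1 1458480_at and 1452241_at the values were -1.04 and -0.43. Atr gave -0.37 by 1427197_at and 1.28 by 1445091_at, and Mdc1 gave 0.37. The calls of Atm 1428830_at, Atr 1427197_at, Topbp1 1458480_at and Mdc1 were lost under some alternatives. All of them rest on the spleen GFP-negative arrays, and the part of the myeloid, T cell and proliferation signal of those arrays in the values was not tested. Over all probe sets, 18864 of 27022 differed in this way. The Chek1 sets and Clspn 1456280_at passed the filter through the groups other than spleen GFP-negative.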

How the results depend on the processing

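The spleen comparison kept 18 calls without any 1 array. Directions of the 18 held under every scale, floor, filter and choice of arrays tried, except that averaging the probe sets per gene turned Atr (-0.48). Counting 1 brightest probe set or the mean of the probe sets of each gene, 10 members and 9426 or 9581 genes were called in the spleen, 10 and 8439 or 8651 for the difference of the GFP effects, and 9 and 9589 or 9812 between GFP-negative fractions; between GFP-positive fractions the brightest set gave 5 and 6149, and the mean 6060 genes. In BCR-ABL1 cells, 1 member (Atm 1428830_at) was called on the deposited scale, with equal medians, with log2 of the value plus 32, with brightest probe sets and with the replicate block. There were 2 (with Clspn 1441984_at) among 2159 calls in the 4 arrays alone and among 1674 in 6 arrays without the spleen GFP-negative pair, in place of 756. Leaving out each array gave 0 to 1 member calls (Atm, adjusted p = 0.0173 and 0.0205 without spleen GFP-negative replicate 1 and 2) among 197 to 1091 there (at most 262 without 1 BCR-ABL1 array, 502 or 503 without 1 spleen GFP-positive array), and 4 to 9 among 8132 to 14472 between GFP-positive fractions. Reversed values were 0.45 for Atr 1427197_at with gene means in the difference of the GFP effects and 0.65 for Topbp1 1452241_at with gene means between GFP-positive fractions. Between GFP-negative fractions they were 0.47 and 0.58 for Atr 1427197_at and 0.040 and 0.15 for Atm 1428830_at on the deposited scale and with equal medians. There Atm also gave 0.14 with gene means, and Topbp1 1452241_at gave -0.023 with equal medians over the tested probe sets. For Mdc1, the difference of the GFP effects was 0.20 (adjusted p = 0.0703) on the deposited scale and 0.049 (adjusted p = 0.662) with equal medians. Of all calls, 57.4% were higher in spleen GFP-positive arrays as reported, 65.2% on the deposited scale, 71.1% with equal medians and 45.1% with equal medians over the tested probe sets; the median over all probe sets was 0.17, 0.35, 0.51 and -0.13 under these. For the difference of the GFP effects this share was 42.3% as reported and 28.4% and 54.2% with the equal medians settings, and between GFP-negative fractions it was 57.6%, 70.6% and 44.0%. The replicate numbers were used as a block, although with 2 pairs per source nothing in the labels shows that they pair the samples (correlations of deviations 0.11 in BCR-ABL1 cells and 0.27 in the spleen, and 0.24 between GFP-positive and 0.16 between GFP-negative fractions); beside Atm in BCR-ABL1 cells, where the adjusted p was 0.0256 with the block, it changed no call of a member. Of the alternatives, the 6 arrays and the medians over the tested probe sets were chosen after seeing the data. With 2 arrays a group, a signal at the floor limits the Chek1 and Clspn folds, and the causes of these changes were not tested.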
